A study of Mus musculus with 2 samples.

Results

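Trp53, the gene of the transcription factor p53, and 9 further genes of its pathway were followed through the cells of subcutaneous ovarian tumors grown in WT and TSK mice. The 10 genes were Trp53, Trp53cor1, Cdkn1a, Mdm2, Ccng1, Trp53inp1, Phlda3, Eda2r, Sesn2 and Zmat3. The list was chosen by known roles in the pathway and, for Trp53cor1, by its measured TSK over WT ratio in macrophage-like cells, and all 10 matched 1 gene each among the 32285 genes of the count tables. TSK (tight skin) mice carry a heterozygous duplication within Fbn1, the gene of the matrix protein fibrillin-1, and WT mice do not; both were C57BL/6 females of 6-8 weeks. All mice received SO cells under the skin of the flanks. SO is a mouse ovarian cancer line, derived from ovarian surface epithelium or stem cells of the ovary, that lacks p53 and carries activated Hras and Myc. The tumors of 4 mice of each genotype were pooled before dissociation, and 1 single-cell 3′ library was made per genotype. No test between genotypes was therefore possible, and every interval below is an exact 95% interval that covers counting error only.

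p53 is a transcription factor that is held low by Mdm2, the ubiquitin ligase that marks it for degradation, and is stabilised by DNA damage and oncogene activity. It then switches on genes that stop the cell cycle, alter metabolism, or kill the cell. Cdkn1a encodes p21, the inhibitor of cyclin-dependent kinases through which p53 arrests the cycle, and Trp53cor1 is a long non-coding RNA, also called lincRNA-p21, whose gene lies beside Cdkn1a. Most of these targets also have basal or p53-independent transcription, so an RNA of the list can be present in a cell without p53.

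In GENCODE M21 (GRCm38, the assembly also called mm10), Trp53cor1 occupied chr17:29057430-29079179 on the minus strand and Cdkn1a chr17:29090976-29100727 on the plus strand, so that the genes were transcribed away from each other with 11797 bases between their starts. Trp53cor1 and Cdkn1a each overlapped annotated genes of the opposite strand, and Sesn2 overlapped Gm12981 on its own strand, so that their counts are less certain. RefSeq windows of 250 bases before to 50 bases after the start (GRCm38.p6) were found for 7 of the 10 genes, with 2 windows for Cdkn1a. These 8 windows were searched for the p53 consensus element, a pair of adjacent half-sites of 10 bases each that reads the same on both strands, with its invariant C and G required in each half-site. Those with at most 3 mismatches are shown because p53 acts on its targets through this element, with the element in capitals and 5 flanking bases on either side.
Cdkn1a: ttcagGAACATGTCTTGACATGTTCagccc
Ccng1: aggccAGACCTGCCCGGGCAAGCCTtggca
Trp53: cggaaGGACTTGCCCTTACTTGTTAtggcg
The Cdkn1a element lay at chr17:29090928-29090947 on the plus strand and had 1 mismatch. Ccng1 had 1 mismatch, at chr11:40755462-40755481 on the minus strand. In the Trp53 window the element at chr11:69580284-69580303 on the plus strand had 3. Of all 32851 windows, 0.067% held an element with at most 1 mismatch and 1.38% one with at most 3. These matches are descriptions of sequence, and binding of p53 was not measured.

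Cells with at least 200 genes, 500 unique molecular identifiers (UMIs) and at most 10% mitochondrial UMIs were kept, and barcodes found in both libraries were left out. The tables shared 263 barcodes, and after their removal 1442 WT cells (median 7658.5 UMIs) and 2961 TSK cells (median 7302 UMIs) remained. Lineages were set from the UMIs of marker genes, with no clustering, and each is called by its markers. The cancer-like cells, led by Lgals7, Cdkn2a, Krt18 and Hmga2, numbered 90 in WT and 1002 in TSK. Fibroblast-like cells numbered 153 and 241, endothelial-like cells 46 and 41, macrophage-like cells 285 and 400, neutrophil-like cells 30 and 190, and T and NK-like cells 450 and 251. No lineage was given to 23.6% of WT and 25.9% of TSK cells. A level is the sum of a gene's UMIs over the cells of a lineage per 1000000 UMIs of those cells (CPM). RNA of the cancer markers was also found outside the cancer-like cells. It summed to 155 CPM in TSK and 21.7 CPM in WT fibroblast-like cells, to 71.5 and 8.89 CPM in macrophage-like cells, to 97.6 and 11.9 CPM in T and NK-like cells and to 410 and 9.40 CPM in neutrophil-like cells, against 2330 and 4010 CPM in cancer-like cells. Its part in the results was not tested.

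**Figure D1:**
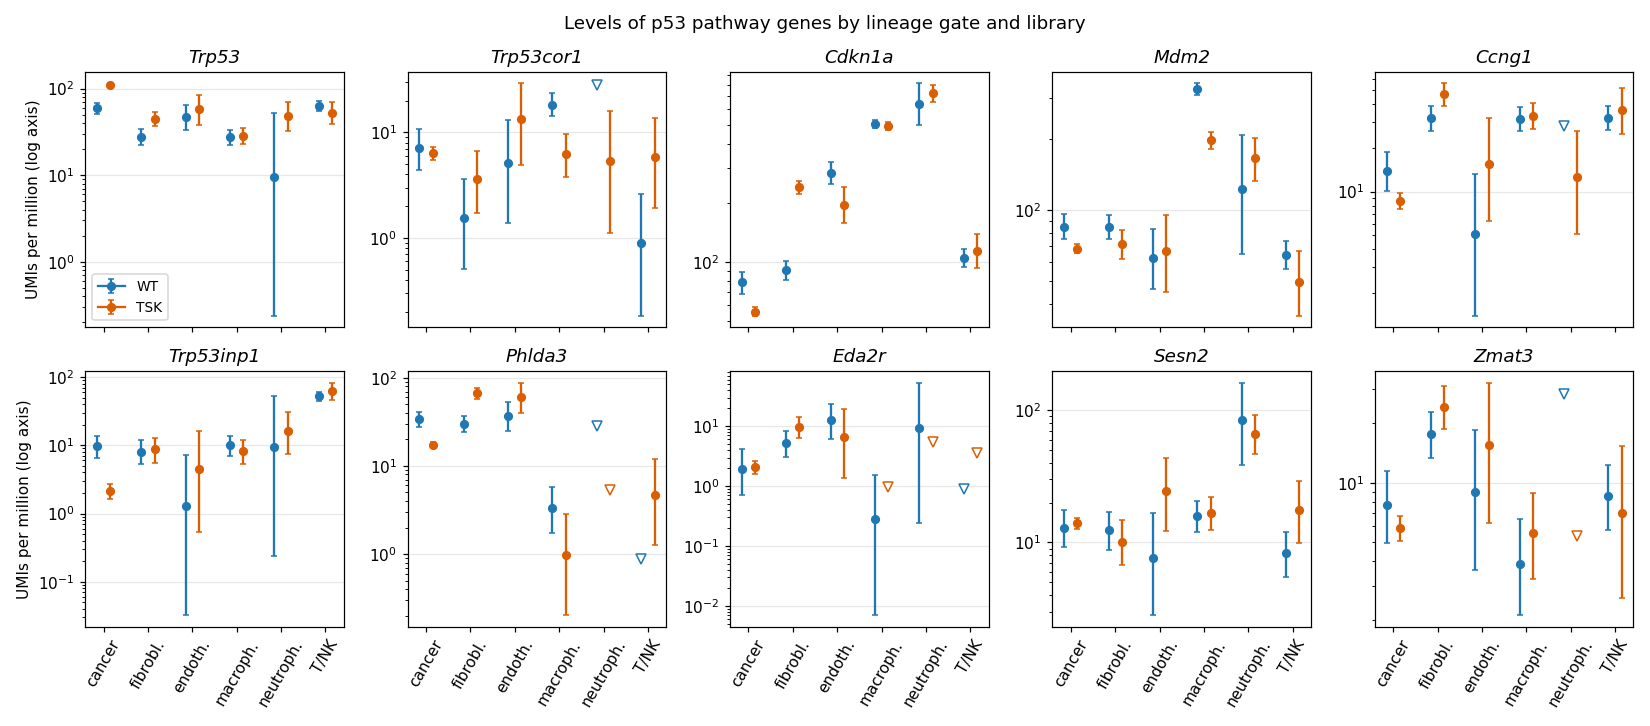
Level of each of the 10 genes (CPM, log axis) in 6 lineages of the WT (blue) and TSK (orange) library, with exact 95% Poisson intervals; an open triangle marks a count of 0, drawn at the level that 3 UMIs would give. Cdkn1a was lowest in cancer-like cells in both libraries, and Phlda3 was at or near 0 in macrophage-like and T and NK-like cells. Neutrophil-like cells had no UMI of Phlda3, which allows up to 28.2 CPM in WT and 5.39 in TSK.

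Trp53 RNA was present in the cancer-like cells although the SO line is p53-/-. Its level was 59.5 CPM in WT (51.2 to 68.7) and 111 CPM in TSK (107 to 115), from 185 and 3397 UMIs. In T and NK-like cells it was 63.7 CPM in WT (55.5 to 72.8) and 52.9 in TSK (38.6 to 70.8). The intervals of cancer-like and T and NK-like cells thus overlapped in WT and were apart in TSK. In fibroblast-like cells the level was 27.5 CPM in WT and 44.6 in TSK, and in macrophage-like cells it was 27.5 and 28.7. The neutrophil-like cells gave 1 UMI in WT and 27 in TSK. The sources used here do not describe the allele that removes p53 from SO, and 3′ UMIs can come from a transcript that lacks other exons, so these UMIs do not check the genotype of the line.

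Cdkn1a (p21) had its lowest value in the cancer-like cells of both libraries, at 78.4 CPM in WT (68.9 to 88.9) and 55.8 CPM in TSK (53.2 to 58.5). Macrophage-like cells had 502 CPM in WT (479 to 525) and 491 CPM in TSK (467 to 517), and neutrophil-like cells 640 (497 to 811) and 725 (655 to 799). The order among these immune cells did not differ beyond the intervals in WT, while in TSK the neutrophil-like cells stood above. Endothelial-like cells came next in WT, with 284 CPM (248 to 324), and had 196 CPM in TSK (157 to 241). In fibroblast-like cells the level was 90.4 CPM in WT (80.3 to 101) and 240 in TSK (222 to 259), and T and NK-like cells had 104 and 114. In WT, the cancer-like, fibroblast-like and T and NK-like cells were therefore close neighbours, with the intervals of fibroblast-like cells overlapping both others. After every cell was thinned to 2000 UMIs, Cdkn1a was found in 5.75% of WT and 9.07% of TSK cancer-like cells, in 58.9% and 55.1% of macrophage-like cells and in 15.2% and 15.3% of T and NK-like cells. Without thinning, the shares in cancer-like cells were 45.6% and 44.4%, at median depths of 34654 and 29004.5 UMIs per cell.

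Mdm2, both a target and the main inhibitor of p53, was highest in macrophage-like cells, at 325 CPM in WT (307 to 344) and 198 CPM in TSK (182 to 214). Cancer-like cells had 84.9 CPM in WT (74.9 to 95.7) and 68.5 in TSK (65.6 to 71.5). These were close to the fibroblast-like cells, at 84.8 and 71.7 CPM, whose intervals overlapped those of the cancer-like cells in both libraries. T and NK-like cells had 64.6 and 49.4 CPM.

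The other targets fell into distinct patterns. Ccng1, which encodes cyclin G1, was at 13.8 CPM in WT and 8.59 in TSK cancer-like cells, below the 31.7 to 46.7 CPM of fibroblast-like, macrophage-like and T and NK-like cells of either library. Trp53inp1, which encodes a nuclear protein of autophagy and cell death, was highest in T and NK-like cells, at 52.5 CPM in WT (45.0 to 60.8) and 62.3 in TSK (46.7 to 81.5), and it was 9.64 and 2.12 CPM in cancer-like cells. Phlda3, an inhibitor of Akt signalling, was a gene of the cancer-like and stromal cells. Its level in cancer-like cells was 34.1 CPM in WT (27.9 to 41.2) and 17.4 in TSK (15.9 to 18.9). Fibroblast-like cells had 30.0 and 67.0 CPM of Phlda3, and endothelial-like cells 37.1 and 60.04. In T and NK-like cells it had no UMI in WT, which allows up to 0.889 CPM, and 4 UMIs (4.70 CPM) in TSK.

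Eda2r, a receptor of the tumor necrosis factor family, was rare everywhere. It gave 6 UMIs in WT and 63 in TSK cancer-like cells, or 1.93 and 2.06 CPM, and 5.26 and 9.78 CPM in fibroblast-like cells. No UMI of Eda2r was found in T and NK-like cells of either library, which allows up to 0.889 CPM in WT and 3.53 in TSK. Sesn2, a stress-induced regulator of mTORC1, was highest in neutrophil-like cells, at 84.6 CPM in WT (38.7 to 161) and 66.5 in TSK (46.8 to 91.7), and stood at 12.9 and 14.0 CPM in cancer-like cells. Zmat3, an RNA-binding protein, was at 7.72 and 5.88 CPM in cancer-like cells and 17.6 and 24.3 CPM in fibroblast-like cells. A further set of collagen-expressing cells with at least 3 pericyte and smooth muscle markers (23 in WT and 45 in TSK) had the highest Phlda3 level of all, 76.5 and 93.9 CPM. More fibroblast than mural markers led its genes, so it was not compared between the libraries.

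The first comparison asked how cancer-like cells, which derive from a p53-deficient line, differed from the host's cells of the same library. Cdkn1a was lower in cancer-like than in macrophage-like cells by a log2 ratio of -2.68 in WT (-2.88 to -2.48) and -3.14 in TSK (-3.24 to -3.04). The corresponding values for Mdm2 were -1.94 and -1.53, and those for Ccng1 were -1.20 and -1.96. Trp53 went the other way, with log2 ratios of 1.11 and 1.95, and Phlda3 had 3.35 and 4.15. Among the 9 genes with enough UMIs, 3 were at least 2-fold lower in cancer-like than in macrophage-like cells in both libraries (Cdkn1a, Mdm2 and Ccng1) and 2 at least 2-fold higher. Of the 12437 genes counted in the same way, 15.3% were lower and 28.3% higher by this rule. The median log2 ratio was -0.67 over the listed genes and 0.45 over all genes counted. The median gene of the list was Trp53cor1, which was chosen by its TSK over WT ratio in macrophage-like cells. Nothing is therefore read from the difference between the 2 medians.

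Against fibroblast-like cells, 3 of the 10 genes were at least 2-fold lower in cancer-like cells in both libraries (Ccng1, Eda2r and Zmat3), where 14% of 12565 genes were. For Eda2r the WT ratio rested on 6 UMIs in cancer-like and 17 in fibroblast-like cells, with an interval from -3.08 to -0.04. Only Trp53 was at least 2-fold higher in both, where 20.9% of genes were, with log2 ratios of 1.11 in WT and 1.32 in TSK. Cdkn1a differed between the libraries in this comparison. Its log2 ratio was -0.20 in WT, with an interval from -0.46 to 0.05 that included 0, and -2.11 in TSK (-2.24 to -1.98). Phlda3 likewise had 0.18 (-0.23 to 0.60) in WT and -1.95 (-2.19 to -1.70) in TSK. The change of these ratios came with higher levels in TSK fibroblast-like cells and lower levels in TSK cancer-like cells, as given above.

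Against T and NK-like cells, Ccng1 and Trp53inp1 were at least 2-fold lower in cancer-like cells in both libraries, 2 of the 9 genes counted, where 13.5% of 12246 genes were. Phlda3 was the 1 gene at least 2-fold higher in both, where 26.4% were. The log2 ratio of Trp53inp1 was -2.44 in WT (-3.05 to -1.88) and -4.88 in TSK (-5.42 to -4.32). Trp53 was level in WT, at -0.10 (-0.39 to 0.19), and higher in TSK, at 1.07 (0.64 to 1.53). Against endothelial-like cells Cdkn1a and Eda2r were at least 2-fold lower, 2 of 10 genes, where 11.5% of 11635 genes were. None was at least 2-fold higher, where 14.3% were. The Eda2r call rested on 10 UMIs in WT and 3 in TSK endothelial-like cells, and its interval in TSK (-3.31 to 0.62) included 0. Against neutrophil-like cells Cdkn1a and Sesn2 were lower, 2 of 9 genes, where 13.3% of 11212 genes were, and Trp53 was higher, where 14.9% were, with 1 UMI in WT neutrophil-like cells. The gate bears on some of these counts. With cells limited to at most 10000 UMIs, which kept 16 WT and 196 TSK cancer-like cells, the 8 lower calls over the fibroblast, macrophage, and T and NK comparisons fell to 3 and the 4 higher calls (Trp53 and Phlda3) to 0, and with only cells that had at most 1 marker UMI of any other lineage the lower calls fell to 4.

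**Figure D2:**
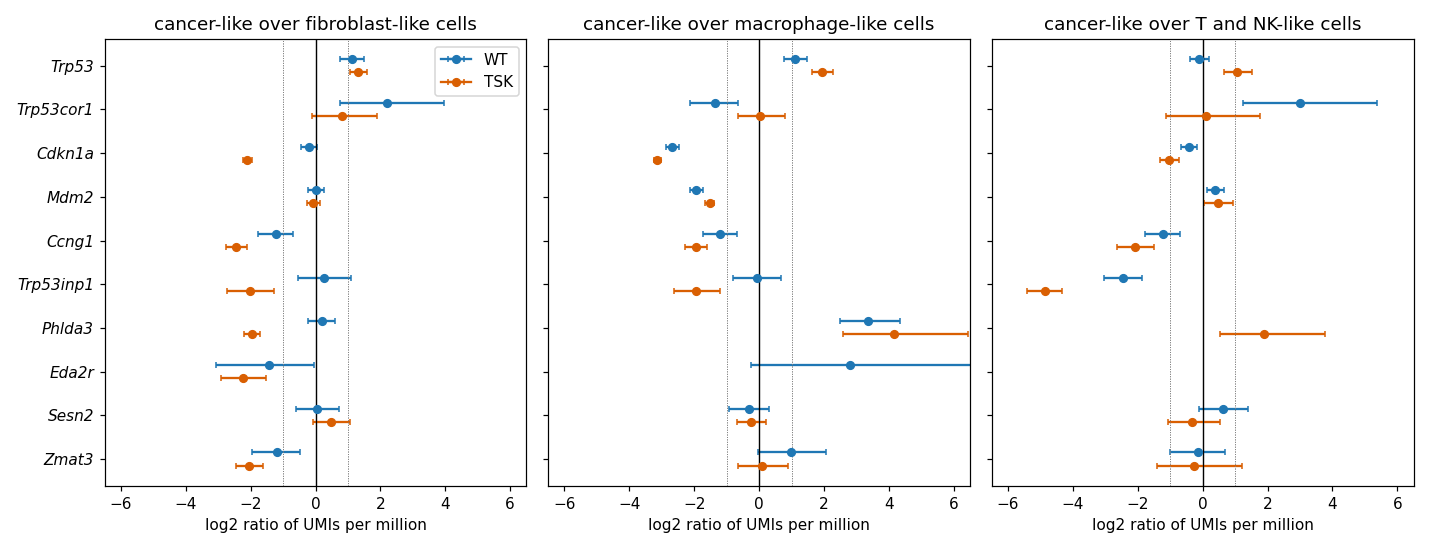
Log2 ratio of the level in cancer-like cells over that in fibroblast-like, macrophage-like and T and NK-like cells of the same library, WT in blue and TSK in orange, with exact 95% intervals; dotted lines mark 2-fold, and a ratio with a count of 0 is not drawn. Cdkn1a, Mdm2 and Ccng1 lay left of the 2-fold line against macrophage-like cells in both libraries, and Trp53 and Phlda3 right of it.

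Other genes of the pathway were counted from lists. Of 32 further p53 target genes, 28 had enough UMIs in the comparison with macrophage-like cells; 8 were at least 2-fold lower and 4 higher in cancer-like cells in both libraries, where 15.3% and 28.3% of all genes were. Against T and NK-like cells 4 were lower and 6 higher of 26, near the 13.5% and 26.4% of all genes. The lowest included Pmaip1 (Noxa), an inducer of apoptosis, which had no UMI in WT cancer-like cells, allowing up to 0.964 CPM, and 3 UMIs (0.0980 CPM) in TSK, against 59.3 and 43.5 CPM in T and NK-like cells. Fas, the death receptor, was at 5.79 and 1.27 CPM in cancer-like cells and at 32.6 and 48.2 CPM in T and NK-like cells. At the other end stood Gadd45a, a growth arrest and DNA damage gene, with 73.9 CPM in WT and 52.9 in TSK cancer-like cells and 8.00 and 9.41 CPM in T and NK-like cells. The further targets thus included genes that were low and genes that were high in the cancer-like cells. The median log2 ratio against macrophage-like cells was 0.19 over this list, below the 0.45 of all genes counted.

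Of 14 regulators and relatives of p53, 12 were counted, and none was at least 2-fold lower in cancer-like than in macrophage-like or T and NK-like cells in both libraries, while 3 were higher in each comparison, near the share of all genes (28.3% and 26.4%). One of the 3 was Cdkn2a, which encodes p16 and the Mdm2 antagonist p19Arf, but it was also a marker of the gate and its ratio is no result. Chek1, a checkpoint kinase, was at 9.97 and 16.8 CPM in cancer-like and 0.834 and 5.55 CPM in macrophage-like cells. Of 12 cell cycle genes that p21 represses through the DREAM complex, 11 were at least 2-fold higher in cancer-like than in macrophage-like cells in both libraries and 10 than in T and NK-like cells, where 28.3% and 26.4% of all genes were. Cdc20, the activator of the anaphase-promoting complex, had log2 ratios of 3.23 in WT and 2.74 in TSK against macrophage-like cells. Cdkn2b, which encodes the inhibitor p15, was at 65.6 and 60.8 CPM in cancer-like cells and at 0.593 and 3.53 CPM in T and NK-like cells. Cdkn1b, which encodes p27, was lower in cancer-like than in T and NK-like cells by log2 ratios of -1.33 and -1.72.

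The second comparison was of TSK with WT within a lineage. In cancer-like cells Trp53 was higher in TSK by a log2 ratio of 0.90 (0.69 to 1.12), and Cdkn1a was lower by -0.49 (-0.69 to -0.29). Mdm2 had -0.31 (-0.49 to -0.12), Ccng1 -0.69 (-1.16 to -0.19) and Phlda3 -0.97 (-1.27 to -0.66). Intervals that included 0 were found for Trp53cor1, Eda2r, Sesn2 and Zmat3. All 10 genes had the 50 UMIs needed to be counted, and 1 was past 2-fold, Trp53inp1 at -2.18 (-2.83 to -1.51), beside 7.38% of 12460 genes at least 2-fold lower and 8.62% at least 2-fold higher. The median log2 ratio of all genes was 0.13 here, 0.24 in fibroblast-like, 0.32 in endothelial-like, 0.19 in macrophage-like and 0.14 in T and NK-like cells.

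The WT values in cancer-like cells rested on few cells. The 5 cells with most UMIs held 51.6% of the 244 Cdkn1a UMIs in WT and 7.79% of the 1708 in TSK. Without the 5 highest cells of each library, 5 of 90 and 5 of 1002, the log2 ratio of Cdkn1a was 0.31 (0.04 to 0.59), with the opposite sign, and 3 further targets had intervals that included 0, at -0.40 (-0.79 to 0.01) for Phlda3, -0.21 (-0.79 to 0.42) for Ccng1 and 0.17 (-0.06 to 0.40) for Mdm2. Trp53 then had 1.12 (0.88 to 1.38). The removal took a larger share of the WT than of the TSK cells, which by itself tends to raise a TSK over WT ratio. The rise of Trp53 is therefore not read as a result, and the removal cannot decide the calls below 0. With at most 10000 UMIs per cell the log2 ratio was 1.41 for Trp53, -0.49 for Cdkn1a, -0.02 for Mdm2 and -2.14 for Phlda3. With the shared barcodes kept it was 0.62 for Trp53 and -0.16 for Cdkn1a, and with equal weight for each cell it was -0.23 for Cdkn1a and -0.15 for Ccng1. Trp53inp1 came in large part from cells that were unlike the rest of the gate. The 13 WT cells without a UMI of both Lgals7 and Cdkn2a held 16 of its 30 UMIs, and they had 886 CPM of the epithelial keratin Krt8, against 30.2 CPM in the other 77. In the 77 WT and 921 TSK cells with both markers, the log2 ratio of Trp53inp1 was -1.30 (-2.15 to -0.34). With the 5 highest cells left out of the whole gate it was -0.47 (-1.62 to 0.91).

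Genes repressed through p21 were also compared, in cancer-like and other cells. Of the 12 cell cycle genes, 11 were at least 2-fold higher in TSK cancer-like cells, where 8.62% of all genes were. In fibroblast-like cells 5 of 6 counted were at least 2-fold higher in TSK, where 6.82% of all genes were. The count was 6 of 8 in macrophage-like cells, where 4.65% of all genes were, and 3 of 3 in endothelial-like cells, where 12.6% were. It was 0 of 4 in T and NK-like cells, where 2.57% were. The part of Cdkn1a and of cancer-cell RNA in these counts was not tested. In cancer-like cells Plk1, a mitotic kinase, was at 9.64 CPM in WT and 47.7 in TSK. Aurkb, the kinase of the chromosomal passenger complex, was at 10.3 and 42.1, and Top2a, the topoisomerase of dividing cells, at 172 and 591. Ccnb2, which encodes cyclin B2, was the gene that did not pass 2-fold, with 41.8 and 59.8 CPM. Of 28 further p53 targets counted, 4 were at least 2-fold lower in TSK and 3 higher, where 7.38% and 8.62% of all genes were. The lower ones included Tap1, the peptide transporter of antigen presentation, at 96.8 CPM in WT and 25.1 in TSK. A list of 10 genes induced by stress and dissociation summed to 2499 CPM in WT and 4044 CPM in TSK cancer-like cells, and its part in these ratios was not tested.

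Within the cancer-like cells, a UMI of Mki67 or Top2a after thinning to 2000 UMIs marked 18.4% of 87 WT cells (10.9% to 28.1%) and 52.3% of 970 TSK cells (49.1% to 55.5%). In TSK, Cdkn1a was lower in the 507 cycling cells, at 47.9 CPM, than in the 463 others, at 67.6 CPM, a log2 ratio of -0.50 (-0.64 to -0.36). Trp53inp1 had -1.93 (-2.81 to -1.12) and Eda2r -1.09 (-1.87 to -0.33), the latter at -0.72 (-1.48 to 0.06) when cycling cells were set by 6 genes. Trp53cor1 had -0.68 (-1.10 to -0.26), but 0.23 (-0.24 to 0.72) by the 6 genes. Sesn2 had 0.52 (0.22 to 0.83), Zmat3 0.47 (0.005 to 0.95) and Trp53 0.17 (0.07 to 0.27). The median depth was 37363 UMIs per cell in the cycling and 23557 in the other TSK cells. In WT the sign for Cdkn1a was the opposite, 1.23 (0.84 to 1.62), but with only 16 cycling cells, of which 1 held 37 of their 88 UMIs. Trp53cor1 had 1.79 (0.42 to 3.13) in WT, with 8 of its 10 UMIs in cycling cells held by 1 cell. Phlda3 had -1.56 (-2.81 to -0.52) in WT, but 0.34 (-0.25 to 0.93) by the 6 genes. No gene of the list was at least 2-fold higher in cycling cells of both libraries, where 1.41% of 10936 genes were, and Trp53inp1 was the 1 gene at least 2-fold lower in both, where 0.85% were; in the WT its interval was -4.87 to 0.24.

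In fibroblast-like cells Cdkn1a, Phlda3, Trp53 and Ccng1 were higher in TSK. Cdkn1a had a log2 ratio of 1.41 (1.21 to 1.61) and Phlda3 1.16 (0.80 to 1.53), and these 2 of the 8 genes counted were past 2-fold, beside 6.82% of 8546 genes at least 2-fold higher and 2.93% lower. Trp53 had 0.69 (0.29 to 1.10) and Ccng1 0.54 (0.15 to 0.92). Mdm2 had -0.24 (-0.51 to 0.03), and the intervals of Trp53inp1, Sesn2 and Zmat3 also included 0. Relative to the median of all genes (0.24) the values of Trp53 and Ccng1 were smaller. Without the 5 highest cells of each library the log2 ratio of Cdkn1a was 1.70 (1.47 to 1.95) and that of Phlda3 was 1.39 (0.94 to 1.85). The removal took 5 of 153 WT and 5 of 241 TSK cells, and a larger share of WT tends to raise the ratios. With equal weight for each cell Phlda3 also fell below 2-fold, at 0.72.

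Fibroblast-like cells with a UMI of Clec3b, Pi16 or Cd34, genes of connective tissue progenitors, numbered 134 in WT and 188 in TSK. In these, the log2 ratio was 1.28 for Cdkn1a (1.06 to 1.504), 0.78 for Phlda3 (0.37 to 1.20) and 0.18 for Ccng1 (-0.27 to 0.63). The remaining 19 WT and 53 TSK cells had 1.04 for Cdkn1a (0.47 to 1.66) and 1.33 for Phlda3 (0.33 to 2.51). Mdm2 differed in sign between these sets, at -0.55 (-0.86 to -0.24) in the first and 1.31 (0.25 to 2.58) in the second. Depth differed between the libraries, in opposite directions in the 2 sets. The median was 22761.5 UMIs per cell in WT and 11119 in TSK in the first set, and 4138 and 6999 in the second. Over all fibroblast-like cells it was 21349 in WT and 10732 in TSK. A limit of at most 10000 UMIs per cell kept 36 WT and 112 TSK fibroblast-like cells. The log2 ratio was then 0.52 for Cdkn1a, 0.38 for Phlda3 and 0.17 for Trp53. Stress genes summed to 7338 CPM in WT and 8737 in TSK. Cdkn2a, a marker of the cancer-like cells, was at 5.88 CPM in WT and 33.0 in TSK fibroblast-like cells, and the part of depth, stress genes and cancer-cell RNA in these ratios was not tested.

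In macrophage-like cells Cdkn1a was level between the libraries, at a log2 ratio of -0.03 (-0.13 to 0.07), and Trp53 at 0.06 (-0.37 to 0.49). Mdm2 was lower in TSK, at -0.72 (-0.86 to -0.58), and it stayed lower without the 5 highest cells of each library, at -0.80 (-0.96 to -0.65). With at most 10000 UMIs per cell it was -1.35. Of 7 genes counted, none of the 6 other than Trp53cor1 was past 2-fold in either direction. Trp53cor1 was past 2-fold lower, beside 1.97% of 8234 genes lower and 4.65% higher, but that ratio is the value by which it was chosen and nothing is read from it. In T and NK-like cells the 5 genes counted all had intervals that included 0, from -0.39 for Mdm2 to 0.25 for Trp53inp1. There 2.57% of 6571 genes were at least 2-fold higher and 2.13% lower. Endothelial-like cells, with 4 genes counted, had Cdkn1a lower in TSK at -0.54 (-0.91 to -0.18), and at -0.43 (-0.98 to 0.10) without the 5 highest cells of each library. No gene counted there was past 2-fold, where 12.6% of 3610 genes were higher and 4.96% lower. In neutrophil-like cells neither of the 2 genes counted, Cdkn1a at 0.18 (-0.19 to 0.57) and Mdm2 at 0.44 (-0.41 to 1.40), was past 2-fold, where 26.4% of 1832 genes were higher and 15.4% lower.

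**Figure D3:**
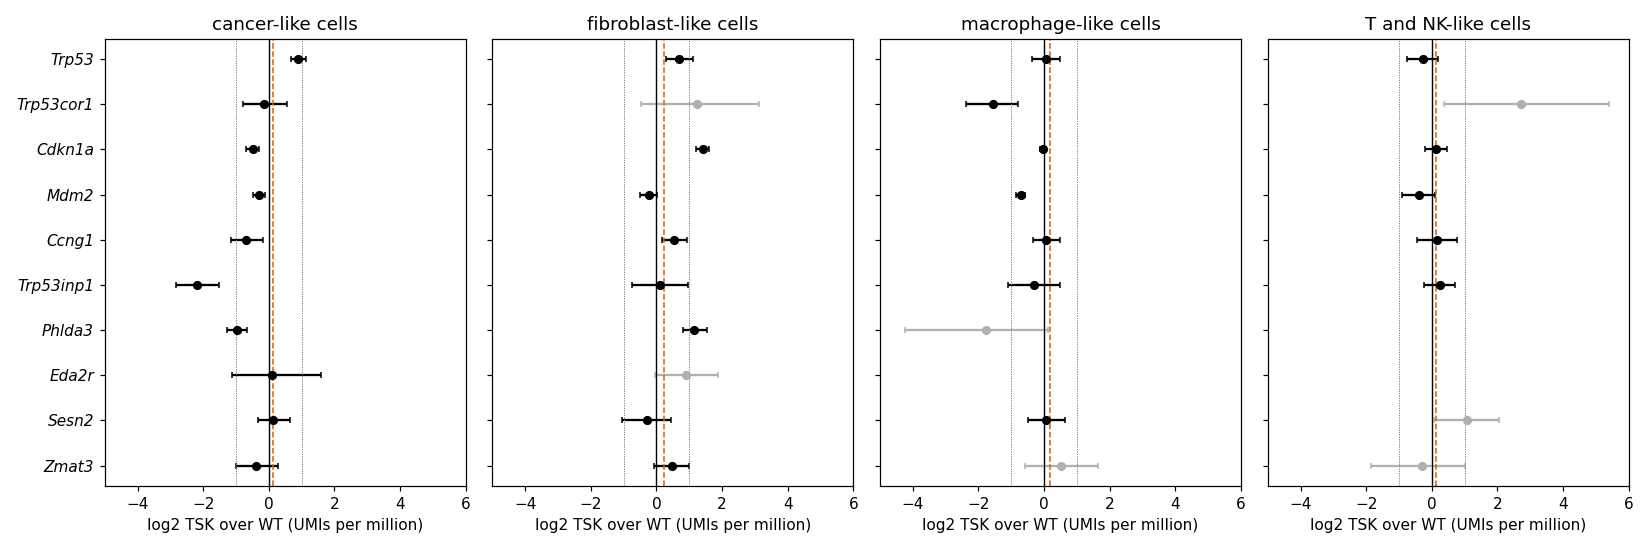
Log2 ratio of the level in the TSK library over that in the WT library for each gene in 4 lineages, with exact 95% intervals; black marks genes with 50 or more UMIs in the lineage, grey those with fewer, dotted lines mark 2-fold and the dashed line is the median of all genes counted. Cdkn1a and Phlda3 lay above 0 in fibroblast-like and below 0 in cancer-like cells, and Trp53inp1 was the lowest in cancer-like cells.

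Trp53cor1 was included in the list for its low ratio in TSK macrophage-like cells, so the following levels are a description. Its log2 ratio there was -1.56 (-2.38 to -0.81), from 66 UMIs (18.3 CPM) in WT and 19 UMIs (6.20 CPM) in TSK. Cancer-like cells had 7.07 CPM in WT (4.43 to 10.7) and 6.37 CPM in TSK (5.51 to 7.33), and their log2 ratio was -0.15 (-0.79 to 0.56). Fibroblast-like cells had 1.55 and 3.62 CPM, and T and NK-like cells 0.889 and 5.88 CPM, from 3 and 5 UMIs. Endothelial-like cells had 5.12 and 13.3 CPM, from 4 and 6 UMIs. No other named lineage reached 50 UMIs over both libraries, and the cells without a lineage had 109 and 48.

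The UMIs of Trp53cor1 sat in few cells. In WT, 47 of 1442 cells had a UMI, and 3 of them held 153 of the 211 UMIs. The highest had 100 Trp53cor1 UMIs among its 9510, and was given no lineage. It had 11 UMIs of the leukocyte gene Ptprc, 38 of Plac8 and 31 of Thbs1, 2 UMIs of macrophage markers and none of cancer markers. The next cells, with 32 and 21 UMIs of Trp53cor1, were macrophage-like and held 158 and 319 UMIs of Arg1, the arginase of alternatively activated macrophages. All 3 had Cdkn1a, with 5, 11 and 11 UMIs, and 87.0% of all WT macrophage-like cells had at least 1. The fourth WT cell, cancer-like with 8 UMIs of Trp53cor1, had 0 of Cdkn1a. In TSK, 146 of 2961 cells had a UMI, and the 5 highest held 75 of the 289 UMIs. Their counts were 23, 15, 14, 13 and 10, and 4 of these cells were cancer-like, while 1 had no lineage. In the same order they held 0, 2, 1, 0 and 0 UMIs of Cdkn1a.

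As Trp53cor1 was chosen by a ratio to which these cells contribute, its concentration is also a description. The 5 highest cells held 77.3% of the Trp53cor1 UMIs in WT, and in TSK 26.0%, beside 0.858% of 4663 and 4.81% of 3682 genes of 0.5 to 2 times its UMIs with as large a share. For Cdkn1a the 5 highest cells held 4.73% in WT and 2.62% in TSK. The macrophage ratio varied with the cells left out. Without the highest macrophage-like cell of each library it was -1.16 (-2.20 to -0.20), and without the 5 highest -1.19 (-3.74 to 0.87), from 8 and 3 UMIs. Without the 2 highest macrophage-like cells of each library, 13 UMIs remained in WT and 8 in TSK, and the log2 ratio was -0.47 (-1.95 to 0.91). When the 5 highest cells of each whole library were left out, none of the TSK cells removed was macrophage-like, and the ratio was 0.76 (-0.33 to 1.90). Thinned to 2000 UMIs, 1.11% of WT (3 of 270) and 1.40% of TSK (5 of 356) macrophage-like cells had a UMI of Trp53cor1.

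**Figure D4:**
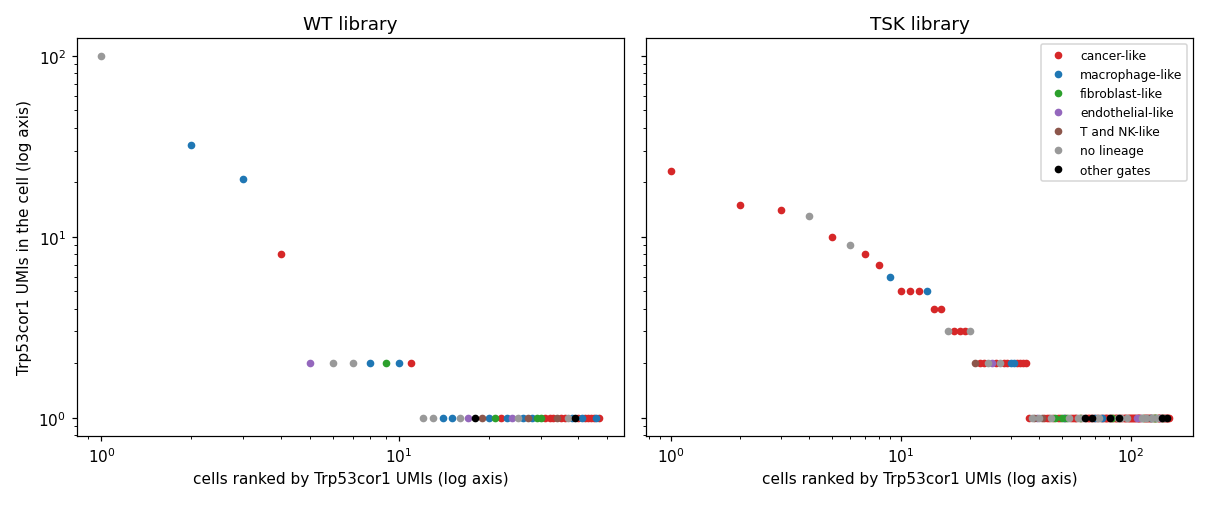
Number of Trp53cor1 UMIs in every cell with at least 1, ranked from the highest (both axes logarithmic), in the WT and TSK library, coloured by lineage. In WT the first 3 cells held 100, 32 and 21 UMIs, and in TSK most of the highest cells were cancer-like.

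Of 6 genes next to Trp53cor1 and Cdkn1a, 3 had enough UMIs to be counted in macrophage-like cells. Their log2 TSK over WT ratios were -0.06 for Srsf3, a splicing factor gene, 0.37 for Fgd2 and 0.66 for Stk38, a kinase gene. The genes whose levels followed Trp53cor1 most closely over 14 points, 7 lineage gates in each library, were Nos1ap, 2310022A10Rik and Snx13, with Pearson's r of 0.88, 0.87 and 0.86 on log2(CPM + 1). Those for Cdkn1a were Csf2rb, Sdcbp and Skap2, with 0.94, 0.93 and 0.93. These were the highest of 13023 genes, and the points share libraries and differ in depth, so the values are descriptive.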

How the data were processed

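The values deposited by the authors were unnormalized UMI counts of each gene in each barcode, for 2 libraries (1 per genotype, each from pooled tumors), made with Cell Ranger 7.1.0 by the file headers (7.1.1 and mm10 in the submitters' processing notes). Depth was 21225411 UMIs over 2332 barcodes in WT and 48296765 over 4436 in TSK. The genes, lists and comparisons were chosen with earlier results of these data known.

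A cell belonged to a lineage with at least 2 of its markers, 3 marker UMIs and 75% of all marker UMIs, which also drops mixed barcodes; no doublet caller was run. Col3a1, Dcn, Pdpn and Pecam1 were found across lineages and left out of the gate after the data were seen, and so were the settings added later. UMIs were summed per lineage and library, and exact 95% intervals were computed (Poisson for levels, binomial for shares, conditional for ratios). Where no UMI was found, the limit was set at 3. Counted genes had at least 50 UMIs over the groups compared and, against other lineages, 10 in each library; this limit replaced 0 in the calls. From each further list the 3 highest and 3 lowest ratios could be named. Ratios were tested on simulated Poisson counts, which cannot show how the intervals hold where the UMIs of a gene sit in few cells. Thinning was tested on the WT cancer-like cells. The work used scipy 1.17.1 and numpy 2.4.6 for the statistics, pandas 2.3.3 for tables and matplotlib 3.10.9 for plots, under Python 3.11.15. Alternatives were other limits on UMIs and mitochondrial share, keeping shared barcodes, stricter gates, equal weight per cell and median scaling.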

Additional observations from a re-analysis of the deposited data

Results flagged for a closer look

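Of the 9 listed genes counted in at least 2 lineages, 3 had TSK over WT ratios on opposite sides of 0 in different lineages, each with an interval apart from 0, as did 17.3% of the 9605 genes counted in at least 2 lineages. Cdkn1a had a log2 ratio of 1.41 in fibroblast-like cells, -0.49 in cancer-like cells and -0.54 in endothelial-like cells. Ccng1 had 0.54 in fibroblast-like and -0.69 in cancer-like cells, and Phlda3 had 1.16 and -0.97. With 1 library per genotype the difference between lineages was not tested, and none of the ratios below 0 kept its call without the 5 highest cells of each library. For cancer-like cells this removal took 5 of 90 WT and 5 of 1002 TSK cells. Taking a larger share of the WT cells tends to raise the ratio by itself, so the removal cannot decide these calls. In cancer-like cells Cdkn1a then had 0.31, Ccng1 -0.21 (-0.79 to 0.42) and Phlda3 -0.40 (-0.79 to 0.01), and Cdkn1a in endothelial-like cells had -0.43 (-0.98 to 0.10).

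Barcodes outside the comparisons also carried these genes. Barcodes found in both libraries held 1211 UMIs of the 10 genes in WT (390 CPM) and 93 in TSK (245 CPM), and those over 10% mitochondrial UMIs held 175 in WT (402 CPM) and 527 in TSK (271 CPM).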

How the results depend on the processing

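No paired analysis was possible because each genotype had 1 library, and for the same reason no library could be left out. Of 159 values recomputed under alternatives, 118 stayed within their interval (or, for counts, within 1.5 times), 39 moved and 2 changed sign. Some of the 118 could not move, as requiring Lgals7 and Cdkn2a in cancer-like cells left fibroblast-like and macrophage-like cells unchanged. Removal of the 5 highest cells was tallied for Trp53cor1 only. The sign change of Cdkn1a in cancer-like cells is therefore not among the 2. Limits of 10000 UMIs and genes had the widest effect. The 8 calls of lower levels in cancer-like cells fell to 3 and the 4 of higher levels to 0, and the lower calls to 4 with at most 1 marker UMI of another lineage. With the limits of 10000 the TSK over WT ratios past 2-fold fell from 4 to 2; the 4 include Trp53cor1 in macrophage-like cells, which was chosen by that ratio. With the same limits the 10 genes summed to 498 CPM instead of 310 in WT and to 255 CPM instead of 292 in TSK cancer-like cells, and the log2 ratio of Trp53cor1 in macrophage-like cells was 0.65. That ratio was 0.76 without the 5 cells richest in Trp53cor1 of each library, and -0.47 without the 2 richest macrophage-like cells, but -1.16 without 1 and -1.19 without 5 of them. The share of cancer-like cells with Cdkn1a was 45.6% in WT and 44.4% in TSK without thinning, and 6.75% in TSK at 1000 UMIs. Cycling cells set by 6 genes gave a log2 ratio of 0.81 for Cdkn1a in WT. With shared barcodes kept, Trp53 in cancer-like cells had 0.62. Fewer cells remain under stricter gates; otherwise the cause was not tested.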
